A study of Mus musculus with 6 samples.

Results

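Interferon-induced genes and sensors of nucleic acid were examined in neural crest cells targeted for knockout of Ehmt1 and Ehmt2. Both genes encode the paired H3K9 methyltransferases GLP and G9a. The members were chosen by name, from a list of 53 gene symbols drawn up with earlier results of these data known. The list covers sensors of foreign or misplaced RNA and DNA, the factors that relay their signal, and effectors induced by interferon. Of the 53 symbols, 48 stood in the count table of 21006 genes. Of the other 5, Mb21d1 and Tmem173 are older names of Cgas and Sting1, which were measured, and Oas1b, Mx1 and Mx2 were not analysed here. Enough counts for a test were found for 30 members, and 18 fell under the filter on low counts.

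The study profiled polyadenylated RNA of mouse branchial arches, the embryonic swellings from which jaw and neck structures arise, at E11.5. The 3 DKO (double knockout) libraries carried Ehmt1f/f, Ehmt2f/f, Rosa26 TdTomato/+ and Wnt1-cre, and the 3 control libraries carried Ehmt1+/+, Ehmt2+/+ with the same Rosa26 TdTomato/+ reporter and Wnt1-cre. In both groups Wnt1-cre, active in the early neural crest, switched on the red protein TdTomato, on which cells were sorted, so neither group is free of cre. Replicates are labelled biological; whether each came from 1 embryo or a pool is unstated, and p-values measure only the spread between these libraries.

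Mammalian cells detect misplaced nucleic acid with a small set of receptors. RIG-I and MDA5 bind double-stranded RNA in the cytosol and signal through MAVS. TLR3 binds such RNA in endosomes, and cGAS binds DNA and signals through STING. These routes converge on IRF3 and related factors, which switch on interferon genes, and secreted interferon then acts through its receptors on the interferon-stimulated response element (ISRE) of many effector genes. H3K9 methylation is known for holding retroelements and interferon-related genes silent in several cell types. AIM2 stands apart from this circuit, since it binds cytosolic DNA and assembles an inflammasome.

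Total counts lay between 23414466 and 44538260 per library, and levels are given as TMM-scaled CPM (counts relative to the scaled library total). Ehmt2 stood at 128 ± 11.3 CPM in DKO against 355 ± 7.13 CPM in controls, and Ehmt1 at 148 ± 18.2 and 259 ± 8.92 CPM (SD, n = 3 each), so both targeted genes followed the labels in direction. Counts by gene do not show whether the reads that remained in DKO come from cut transcripts or from cells with intact genes. The call rule was edgeR's quasi-likelihood test with Benjamini-Hochberg adjustment across the 14555 genes tested, and an adjusted p below 0.05. Over all tested genes 3.01% were called, 2.19% higher and 0.818% lower in DKO. Higher genes made up 72.8% of the calls, or 83.9% when scaled by library size only and 56.4% with DESeq2. Across all alternative fits this share ran from 54% (without DKO replicate 3) to 85.2% (against a 1.5-fold threshold). All 14 neural crest markers examined, such as Twist1 and Prrx1, had at least 1 CPM in every library; 10 had negative log2 fold changes (median -0.20) and 0 were called. Of 19 immune markers, 11 were tested and 0 called, and 10 stayed under 1 CPM in every library. Among those tested, 8 had positive and 3 negative log2 fold changes (median 0.25). The summed level of all 19 was 24.9 to 35.8 CPM in DKO against 24.8 to 30.6 CPM in controls. Most of that sum was Coro1a, at a mean of 18.9 CPM in DKO and 17.5 CPM in controls. The 10 endothelial markers all had positive log2 fold changes with 0 called, and their summed level did not overlap between groups, at 38.5 to 45.9 CPM in DKO against 30.7 to 37.8 CPM in controls. Erythroid markers were spread widely, summing to 20.02 to 323 CPM in DKO against 106 to 184 CPM in controls, and 8 of 9 tested were negative with 0 called. Of 10 neuronal markers 9 were negative (median -0.44), 3 had every DKO library below every control and 1 was called lower (Pou4f1). Of 10 epithelial markers 6 were negative and 0 called. The part of these cells in the results below was not tested. Control replicate 2, the shallowest library, stood apart in many of the members, and the values without it are given together after the effectors. In bulk libraries, fewer cells of a type and less RNA per cell cannot be told apart.

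Of the 30 tested members, 4 rose in DKO and 0 fell: the DNA sensor gene Aim2, the antiviral effector genes Ifit2 and Oas3, and Ifi27, which encodes a small hydrophobic interferon-induced protein. The remaining 26 were not called. The called share was 13.3% of tested members, beside 3.01% of all tested genes. Oas3 entered the test only through its DKO counts, so a gene like it could hardly be tested without differing. For this reason, and because the members were chosen with earlier results of these data known, the share is given as a description. The median log2 fold change of the tested members was -0.04, beside -0.01 over all tested genes. The groups did not overlap for 12 members (40.0%), 6 with DKO above and 6 with DKO below, where 27.2% of all tested genes showed such separation. By an unadjusted p below 0.05 there were 9 members, 5 higher and 4 lower, which is 30% against 20.9% of all tested genes.

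Aim2, whose product senses cytosolic DNA, rose in every DKO library. It measured 22.5, 23.1 and 21.9 CPM in DKO replicates 1 to 3, and 3.67, 5.02 and 2.12 CPM in control replicates 1 to 3. Every DKO library lay far above the highest control, and the DKO libraries differed little from one another. The log2 fold change was 2.65 (SE 0.27, 95% interval 2.04 to 3.27; edgeR adjusted p = 0.00272), a 6.29-fold rise. Leaving out any 1 of the 6 libraries kept the call, with adjusted p from 0.00406 to 0.0288 and log2 fold changes from 2.38 to 2.95. Summed immune markers were 25.7, 24.9 and 35.8 CPM in DKO replicates 1 to 3, and their relation to the Aim2 level was not tested.

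Ifit2, whose protein binds AU-rich RNA and curbs translation of viral messages, had the highest level per kilobase of exon of the 4 in DKO, at 8.32 CPM per kb. Its level was 33.3, 35.0 and 29.7 CPM in the DKO libraries against 20.6, 16.7 and 18.4 CPM in the controls. The groups were apart by 0.81 on the log2 scale (SE 0.11, 95% interval 0.56 to 1.07; edgeR adjusted p = 0.00876). Without DKO replicate 1 the call ended narrowly (adjusted p = 0.0503), and against a threshold of 1.5-fold it ended as well (adjusted p = 0.379).

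Ifi27 and Oas3 rose from low levels. Ifi27 measured 3.83, 4.41 and 1.32 CPM in DKO against 0.537, 0.494 and 0.41 CPM in controls, so DKO replicate 3 was well below the other DKO libraries but above all controls. Its log2 fold change was 2.71 (SE 0.47; edgeR adjusted p = 0.024). Leaving out DKO replicate 1 ended this call (adjusted p = 0.0846), as did leaving out any 1 control (0.0869, 0.11 and 0.0986 for replicates 1, 2 and 3), limma-voom (0.0825) and the 1.5-fold threshold (0.0626). Oas3 makes the short 2-5A oligonucleotides that activate RNase L. It had 26, 23 and 27 counts in DKO against 0, 2 and 1 counts in controls, a ratio of summed counts of 19.4 after scaling with a 95% interval of 6.39 to 96.2 (exact binomial, counting error only). The fitted log2 fold change of 4.11 was 3.31 without control replicate 1 and 5.19 without control replicate 2. The edgeR adjusted p was 0.0166, and it passed the threshold no longer when DKO replicate 1 (0.0683), control replicate 1 (0.0573) or control replicate 3 (0.0797) was left out. Even in DKO the level of Oas3, 0.61 ± 0.0878 CPM (SD, n = 3), was small.

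**Figure D1:**
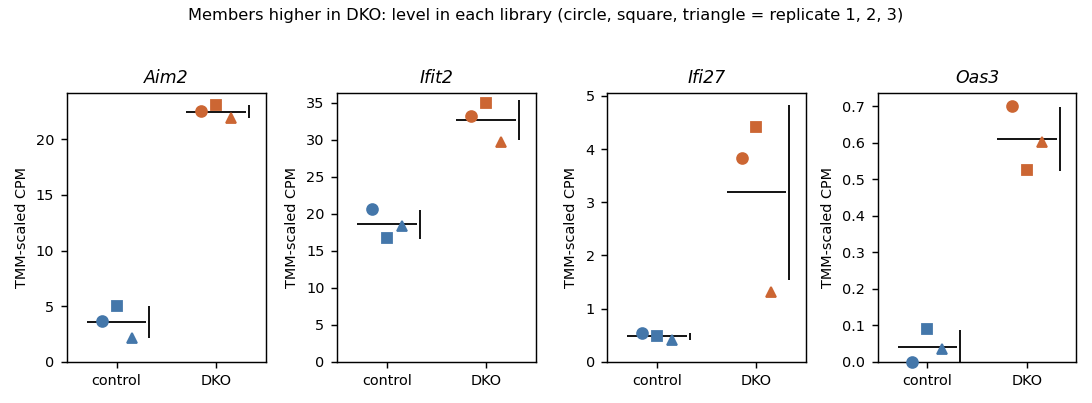
Level of the 4 members that rose, in TMM-scaled CPM (vertical axes, each from 0), in the 3 control and 3 DKO libraries; symbols mark replicate number, horizontal lines the mean and vertical lines 1 SD. Every DKO library lies above every control library in each panel, and Ifi27 in DKO replicate 3 (1.32 CPM) lies below the other DKO libraries.

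No tested gene within 200 kb of the 4 members that rose was called. Aim2 lies on chromosome 1 (173349547 to 173466040, mm10), beside the Ifi200 cluster of related DNA-binding proteins. Of 12 other genes within 200 kb in the table, 2 were tested and 0 called; they were Ackr1, a chemokine receptor gene (log2 fold change 0.52, SE 0.21, adjusted p = 0.212), and Cadm3, an adhesion molecule gene (0.50, SE 0.13, adjusted p = 0.075). The spans of Aim2 and Cadm3 overlap in RefSeq, while no exon of Aim2 overlaps one of another gene in GENCODE M21. The cluster members Ifi203 and Ifi204 had 2 and 7 counts over the DKO libraries, and 2 and 9 over the controls. Ifi202b, a relative outside the list of members and named after its values were seen, had 5, 70 and 37 counts in DKO and 5, 0 and 3 counts in control libraries. It was too scarce to test with all libraries. Without DKO replicate 1, its lowest DKO library, it entered the test only through its DKO counts. It was then called higher (log2 fold change 3.85, edgeR adjusted p = 0.0485). A gene selected in this way could hardly be tested without differing, so the call is given as a description.

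Oas3 (chromosome 5, 120753098 to 120777684) sits in the Oas cluster. Of its 16 neighbours within 200 kb, 7 were tested and 0 called, and the adjacent Oas2 had 4 counts in DKO and 7 in control libraries. Ifit2 (chromosome 19, 34550550 to 34576534) lies next to Ifit3, of the same family. Ifit3 measured 0.566, 0.411 and 0.224 CPM in DKO against 0.313, 0.449 and 0.479 CPM in controls, overlapping (log2 fold change -0.03, SE 0.42, adjusted p = 0.976). Ifit1 and Ifit3b had 4 and 23 counts in DKO, and 13 and 16 in control libraries. Of 8 genes near Ifit2, 4 were tested and 0 called. Ifi27 (chromosome 12, 103434189 to 103440245) overlaps the span of its relative Ifi27l2a, which had 9 counts in DKO and 5 in control libraries; reads that fit both could have been split or dropped by the counting. Of its 9 neighbours 6 were tested and 0 called. Oas, Ifit and Ifi200 genes resemble one another within each family, and reads shared between copies make the count of 1 copy uncertain.

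**Figure D2:**
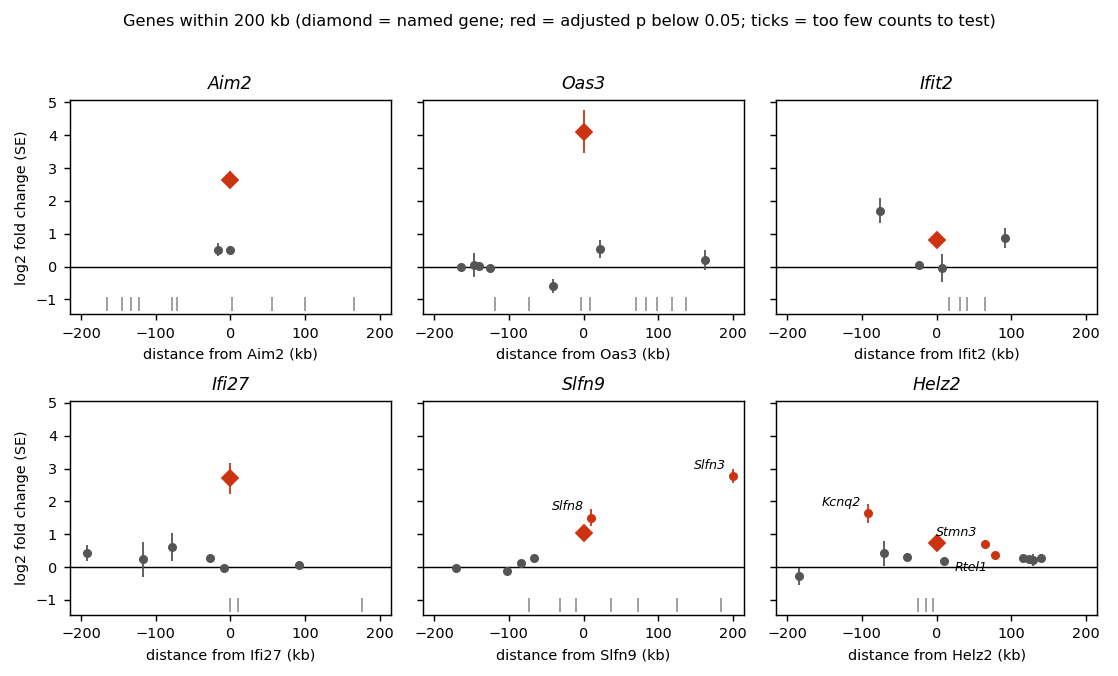
Log2 fold change (vertical axis, with SE) of genes within 200 kb of 6 genes that rose, by distance in kb (horizontal axis); diamonds mark the named gene, red points a called gene and grey ticks genes with too few counts to test. Around Aim2, Oas3, Ifit2 and Ifi27 no neighbour was called, whereas Slfn9 had the called neighbours Slfn8 and Slfn3, and Helz2 had 3.

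The promoters of the members differed in whether they held an ISRE. In the RefSeq promoter table (GRCm38.p6, the mm10 assembly) 38 of the 48 measured members had an entry. The letters GAAA, any 2 bases and GAAA again, searched on both strands in the 250 bases before each start, were found in 14 of them (36.8%), where 3.49% of all 16833 matched genes held a match; overlapping matches were counted separately. Among members too scarce to test, 9 of 14 held a match, and among tested members 5 of 24, which were Ifit3, Oas3, Stat2, Bst2 and Ifitm2. Of these 5, Oas3 was called, and it was in the tested class only because of its DKO counts. The 1 listed window of Aim2 and those of both listed starts of Ifit2 held no match, which says only that these letters are not in these windows. Ifi27, which was also called, had no promoter entry and was not searched. The Aim2 window lies inside the annotated span of the gene, and the start at the upstream end of that span was not searched.

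Bases 130 to 41 before the start are shown for 5 members, 5′ to 3′ on the gene's strand, with ISRE matches in capitals: Aim2, without a match in its window, the called gene with one, and 3 typical interferon effectors with matches that were not called or not testable.
Aim2: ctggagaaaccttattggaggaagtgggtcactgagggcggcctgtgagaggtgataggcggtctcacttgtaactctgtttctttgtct
Oas3: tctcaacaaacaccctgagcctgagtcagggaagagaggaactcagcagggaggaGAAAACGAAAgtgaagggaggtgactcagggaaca
Ifit1: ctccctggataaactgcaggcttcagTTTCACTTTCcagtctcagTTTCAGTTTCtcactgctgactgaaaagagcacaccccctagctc
Isg15: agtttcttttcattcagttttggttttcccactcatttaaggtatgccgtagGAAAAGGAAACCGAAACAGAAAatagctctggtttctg
Bst2: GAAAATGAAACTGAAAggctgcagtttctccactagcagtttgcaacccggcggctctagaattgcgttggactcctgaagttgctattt
These stretches are chr1:173420474-173420563 (plus strand), chr5:120777700-120777789 (minus), chr19:34640759-34640848 (plus), chr4:156200859-156200948 (minus) and chr8:71537513-71537602 (minus). Isg15 carries 3 overlapping matches and had 3, 0 and 6 counts in DKO against 0, 16 and 0 counts in controls. Oas3, with 1 match, rose from 0, 2 and 1 counts in controls to 26, 23 and 27 in DKO. Per kilobase of exon both were low in DKO, Isg15 at 0.095 and Oas3 at 0.086 CPM per kb. Any relation of the matches to these levels was not tested.

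The RNA sensors were not called in either direction. Ifih1, which encodes MDA5, measured 0.593, 0.937 and 0.671 CPM in DKO against 1.05, 1.39 and 0.513 CPM in controls, overlapping (log2 fold change -0.41, 95% interval -1.30 to 0.48). Ddx58, which encodes RIG-I, measured 5.23, 5.53 and 4.05 CPM in DKO against 4.41, 8.52 and 3.59 CPM (-0.15, 95% interval -0.88 to 0.59). Dhx58, the gene of the regulator LGP2, measured 1.40, 2.01 and 2.08 CPM against 1.63, 2.11 and 1.23 CPM (0.15, 95% interval -0.49 to 0.80). For these 3 genes the groups overlapped, and the intervals from the fit of all 6 libraries exclude a 2-fold rise. Without control replicate 2 the log2 fold changes were -0.11, 0.31 and 0.36 in the same order. Intervals were not computed for that fit, so the exclusion holds only with this library included.

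Mavs, the mitochondrial adaptor of RIG-I and MDA5, was slightly lower in each DKO library, at 27.2, 26.3 and 28.8 CPM against 29.6, 33.4 and 29.8 CPM, but was not called (log2 fold change -0.17, SE 0.09; edgeR adjusted p = 0.307). Tlr3, the endosomal receptor, was higher in each DKO library, at 1.16, 1.44 and 1.34 CPM against 1.07, 0.852 and 0.615 CPM, and was not called either (0.62, SE 0.28; adjusted p = 0.255). Per kilobase of exon, Mavs was the most abundant of these 5 genes in controls at 9.24 CPM per kb, above Ddx58 at 0.781, Dhx58 at 0.507, Tlr3 at 0.163 and Ifih1 at 0.121.

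Among DNA sensors other than Aim2, Cgas measured 1.27, 1.23 and 0.603 CPM in DKO against 2.30, 1.97 and 1.33 CPM in controls. Each DKO library lay below each control, with a log2 fold change of -0.86 (SE 0.35) that was not called (edgeR adjusted p = 0.212). Sting1, its adaptor, overlapped between groups at 10.3, 9.75 and 11.9 CPM against 9.71, 13.1 and 11.6 CPM (-0.10, 95% interval -0.45 to 0.24). Zbp1, a sensor of left-handed nucleic acid, had 6, 0 and 9 counts in DKO against 5, 0 and 3 counts in controls. In controls Aim2 ranked 17 of the 48 members by level per kb (1.03 CPM per kb), and in DKO it reached 6.43 CPM per kb, above Sting1 at 3.89.

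Genes that keep the cell's own nucleic acid from being sensed were abundant and not called in either direction. Adar, which edits double-stranded RNA, stood at 112 ± 7.02 CPM in DKO against 108 ± 1.41 CPM in controls (SD, n = 3 each; log2 fold change 0.06, 95% interval -0.10 to 0.22). Samhd1, which depletes nucleotides, had a log2 fold change of -0.04 (95% interval -0.22 to 0.14), and Rnaseh2b, a subunit of the enzyme that removes ribonucleotides from DNA, had -0.04 (95% interval -0.29 to 0.21). The DNA exonuclease gene Trex1 was at 10.7, 10.9 and 11.0 CPM in DKO against 12.6, 12.8 and 11.4 CPM in controls, apart but not called (-0.18, SE 0.11, adjusted p = 0.402). All exon bases of Trex1 also belong to Atrip on the same strand, so its count depends on how shared reads were assigned. Of 22 related nucleases and RNA decay genes, 20 were tested and 0 called, with a median log2 fold change of 0.01.

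Of the transcription factors, Irf3, the factor activated by MAVS and STING, was higher in each DKO library. It measured 48.4, 48.5 and 44.7 CPM against 40.5, 42.6 and 37.6 CPM, a log2 fold change of 0.23 (SE 0.08) that was not called (edgeR adjusted p = 0.164). Irf1, Irf9 and Stat2 overlapped between groups, with log2 fold changes of 0.31, 0.19 and -0.11. Irf7, itself induced by interferon and used as a sign of its action, had 5, 4 and 5 counts in DKO against 3, 12 and 1 counts in controls, too few to test.

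No other effector was called. Ifitm2, which encodes a membrane protein that blocks viral entry, was the most abundant member per kb in controls (184.5 CPM per kb) and measured 128, 125 and 99.5 CPM in DKO against 115, 135 and 112 CPM (log2 fold change -0.04, 95% interval -0.30 to 0.22). Ifitm3 was lower in each DKO library, at 3.80, 3.47 and 2.93 CPM against 4.79, 7.90 and 4.14 CPM, and was not called (-0.71, SE 0.26, edgeR adjusted p = 0.179). Oasl2, an Oas-like protein gene, overlapped at 0.593, 0.411 and 0.313 CPM against 1.27, 2.29 and 0.513 CPM (-1.61, SE 0.53, adjusted p = 0.145).

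Ifi35 had 4, 11 and 10 counts in DKO against 23, 13 and 8 counts in controls, and in CPM it was lower in each DKO library (log2 fold change -1.19, SE 0.45, edgeR adjusted p = 0.183). Eif2ak2, which encodes the RNA-activated kinase PKR, was lower in each DKO library by a small margin, at 26.8, 29.1 and 25.6 CPM against 29.6, 30.4 and 30.5 CPM (-0.15, SE 0.09, adjusted p = 0.352). Trim25, a ubiquitin ligase gene that acts with RIG-I, was split within the DKO group. It measured 1.64, 1.87 and 4.20 CPM in DKO against 4.50, 4.17 and 4.72 CPM in control libraries (-0.79, SE 0.35, adjusted p = 0.243). Without DKO replicate 3, the DKO library nearest the controls for this gene, Trim25 was called lower (-1.34, adjusted p = 0.0142). Ifitm1, Bst2 and Parp14 overlapped between groups and were not called, with log2 fold changes of 0.04, -0.38 and 0.64.

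For 23 of the 30 tested members, the upper end of the 95% interval stayed under a 2-fold rise in the fit of all 6 libraries. The other 7 were the 4 that rose and Tlr3, Parp14 and Ifitm1, whose upper ends were 1.26, 1.62 and 1.09 on the log2 scale.

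**Figure D3:**
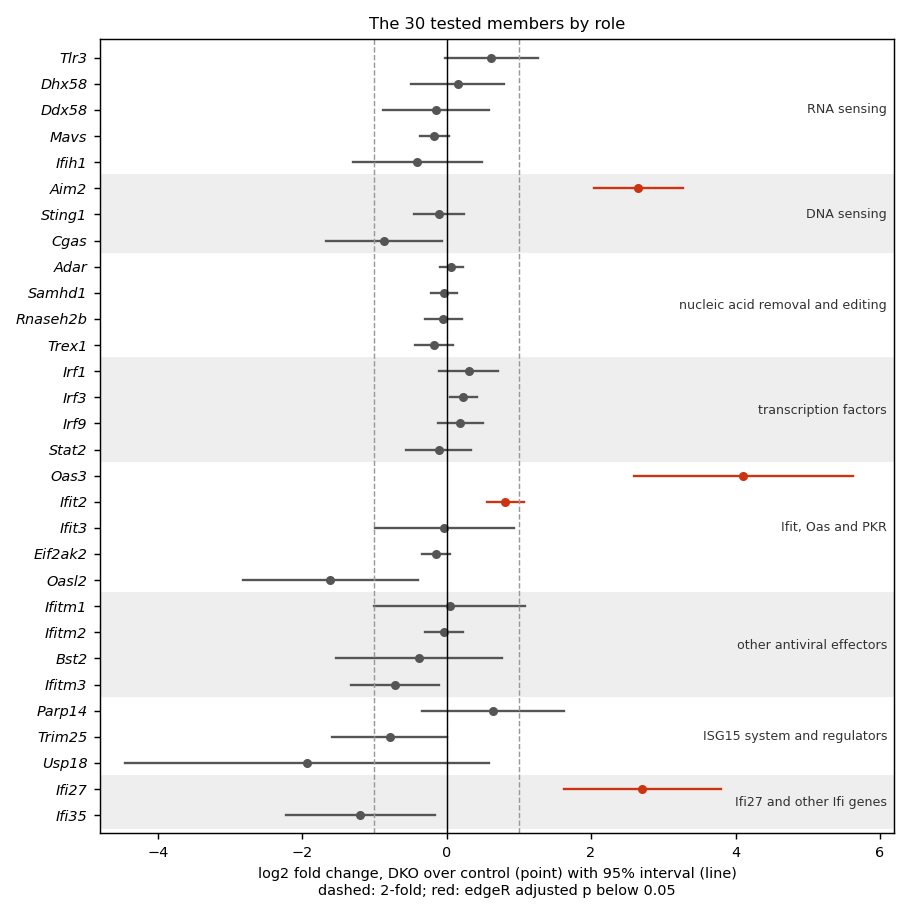
Log2 fold change of DKO over control with its 95% interval (horizontal axis) for the 30 tested members, grouped by role; dashed lines mark a 2-fold change and red marks an edgeR adjusted p below 0.05. Aim2, Oas3, Ifit2 and Ifi27 lie to the right of 0, and the intervals of 23 members end below the 2-fold line on the right.

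The members most often used as readouts of interferon were close to absent, and control replicate 2 held more of their reads than any other library. Isg15, a ubiquitin-like modifier gene, had 3, 0 and 6 counts in DKO replicates 1 to 3, and 0, 16 and 0 counts in control replicates 1 to 3. Usp18, which removes ISG15 and damps the interferon receptor, had 8, 12 and 6 counts in DKO against 12, 50 and 3 counts in controls. Rsad2, the gene of the antiviral enzyme viperin, had 1, 2 and 7 counts against 0, 19 and 6. For all 3 genes, control replicate 2 was the highest library although it was the shallowest.

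Oas1a, Ifit1, Irf7 and Ifi44 were highest there too, with 21, 10, 12 and 7 counts in control replicate 2 and no more than 7 counts in any other library. These 7 genes, picked after their values were seen, summed to 6.06 CPM in control replicate 2 and to 0.444 to 0.715 CPM in the other 5 libraries. Control replicate 2 held the highest level of 25 of the 48 members (52.1%), where 16.7% of all genes with a count were highest there. Its summed immune marker level, a sum made up mostly of Coro1a, was 27.3 CPM, within the range of the other libraries. The relation of immune cells to the levels in this library was not tested.

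Removing control replicate 2 moved the values of several members. Usp18 went from a log2 fold change of -1.94 to 0.09, Bst2 from -0.38 to 0.35, Ddx58 from -0.15 to 0.31, Stat2 from -0.11 to 0.13 and Oasl2 from -1.61 to -1.06, and none of these was called with or without it. Ifitm3 went from -0.71 to -0.39, Ifih1 from -0.41 to -0.11, Irf9 from 0.19 to 0.34 and Dhx58 from 0.15 to 0.36, again with no call. Parp14 went from 0.64 to 1.17 (edgeR adjusted p = 0.259). Aim2, Ifit2 and Oas3 stayed called without this library (adjusted p = 0.00635, 0.0402 and 0.0367), and Ifi27 did not (adjusted p = 0.11).

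**Figure D4:**
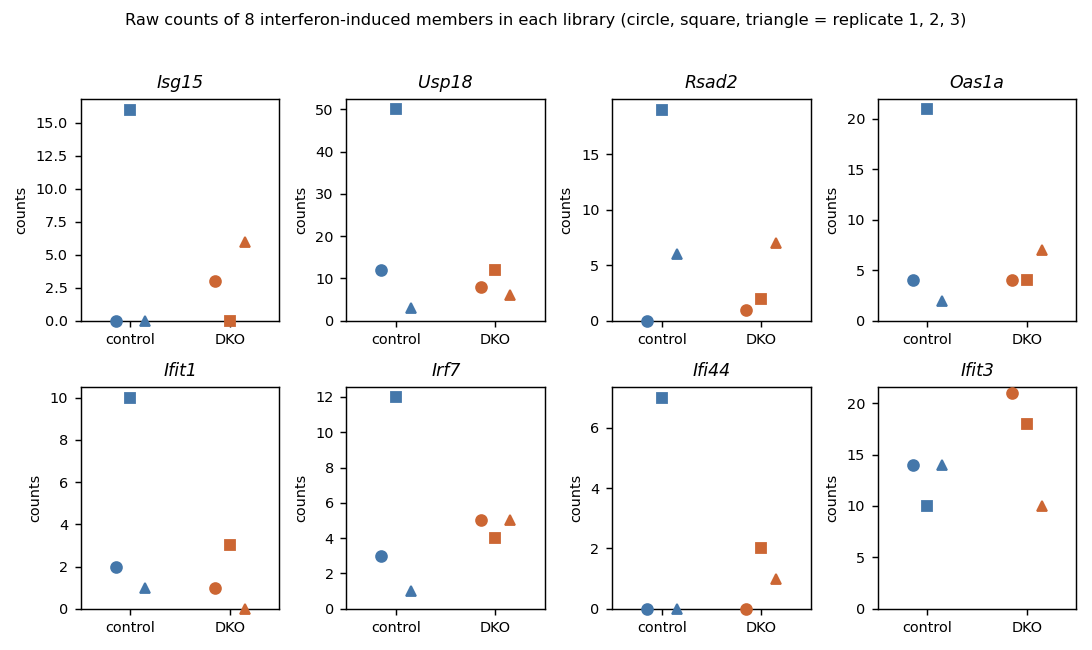
Raw counts (vertical axes, from 0) of 8 interferon-induced members in the 3 control and 3 DKO libraries; symbols mark replicate number. Control replicate 2, the square on the left of each panel, is highest for 7 of the 8 genes, and Ifit3 does not show this.

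Among members too scarce to test, Gbp2, a guanylate-binding protein gene, was the 1 whose groups did not overlap. It had 5, 3 and 4 counts in DKO against 1, 0 and 0 counts in controls, 9.19 times as many after scaling (95% counting interval 1.36 to 393). Its relative Gbp3 overlapped between groups, with 7, 9 and 9 counts in DKO and 6, 20 and 7 counts in control libraries, the highest in control replicate 2. The chemokine gene Cxcl10 had 23 and 24 counts. Oas2, Oasl1, Isg20 and Xaf1 had 4, 9, 23 and 4 counts over the DKO libraries and 7, 15, 15 and 4 over the controls.

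Genes of interferon itself were near zero. Of 21 interferon genes of all 3 types, 19 had no count in any library, Ifnb1 among them, and the other 2 (Ifnab and Ifnz) had 7 counts in all, 6 in DKO and 1 in control libraries. At this depth a count of 0 allows up to 3 counts, or 0.067 to 0.135 CPM by library, so a brief or rare expression below that was not detectable. The receptors and kinases that answer interferon were expressed. Of 16 such genes all were tested and 0 called, with Ifnar1 at 136.5 ± 17.5 CPM in DKO against 144 ± 2.20 CPM in controls (SD, n = 3 each) and Jak1 at a log2 fold change of -0.16. Socs3, a feedback inhibitor gene named after its values were seen, was higher in each DKO library at 35.1, 34.6 and 28.6 CPM against 25.3, 27.1 and 23.2 CPM (0.38, edgeR adjusted p = 0.112), and was called with DESeq2 (adjusted p = 0.0396) and without DKO replicate 3 (adjusted p = 0.0293).

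Of 29 further genes of sensor signalling, 24 were tested and 0 called, with a median log2 fold change of 0.00; G3bp1 and Zcchc3, with the highest CPM, were at -0.13 and -0.17. Myd88, the adaptor gene of most Toll-like receptors, was higher in each DKO library at 12.0, 13.2 and 8.25 CPM against 6.62, 5.97 and 6.84 CPM (log2 fold change 0.78, edgeR adjusted p = 0.0714), and was called with DESeq2 (adjusted p = 0.00733) and without DKO replicate 3 (adjusted p = 0.0112). Trim56, a ubiquitin ligase gene, was also higher in each DKO library (0.50, adjusted p = 0.0813) and was called with DESeq2 (adjusted p = 0.0189); both were named after their values were seen. Of 21 NF-kB response genes, 11 were tested and 0 called, with Vcam1 at -0.09 and Nfkb1 at -0.01.

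A further list of 68 interferon-induced genes had 38 tested members, of which 3 rose and 0 fell, with a median log2 fold change of 0.10. The called share was 7.89%, beside 3.01% of all tested genes. As the list was chosen with earlier results of these data known, this share is given as a description. Slfn9, a Schlafen family gene, measured 95.4, 98.6 and 82.6 CPM in DKO against 52.9, 38.4 and 43.1 CPM in controls, apart by a log2 difference of 1.04 (SE 0.13; edgeR adjusted p = 0.00549). Its neighbour Slfn8 rose from 0.721 ± 0.159 to 2.08 ± 0.218 CPM (log2 interval 0.91 to 2.09, adjusted p = 0.0224), and Helz2, a helicase gene, from 12.2 ± 1.78 to 20.2 ± 0.76 CPM (SD, n = 3 each), or 0.73 in log2 (SE 0.13, adjusted p = 0.0245). The Slfn9 call survived the loss of any 1 library; those of Slfn8 and Helz2 held without DKO replicate 3 and ended without any of the other 5. Slfn3, in the same cluster and named after its value was seen, was 13.1 to 17.0 CPM in DKO against 1.64 to 2.80 CPM in controls (2.78, SE 0.22, adjusted p = 0.000795). Schlafen genes are similar in sequence, so reads could be shared among them. The ISRE letters were in the windows of Slfn8 and Slfn9, and not in those of Slfn3 and Helz2.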

How the data were processed

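The authors deposited raw counts, whole numbers by gene symbol, for the 6 libraries. Tools named in the submitters' processing notes are Picard, STAR 2.7.10a and Trim Galore, with the build mm10. Counting program, strand setting and annotation: not given in the sources used here. The tests used R 4.3.3 and edgeR 4.0.16: filterByExpr by group (minimum count 10, minimum total 15), TMM, a robust quasi-likelihood fit with group as the only term, 2-sided. The SE is the log2 fold change divided by the root of F, and the 95% interval uses the fit's degrees of freedom. On simulated counts for DKO against control over 14555 genes, the test recovered 83 of 100 genes changed 2-fold and 100 of 100 changed 4-fold. False calls were 4.69%, and the changed genes had a mean of at least 1 CPM. The simulated spread followed the trend with level, so spread particular to a gene or a library was left out. Recovery in the real counts can therefore be lower. Positions and promoters are from RefSeq (GRCm38.p6), exon lengths and overlaps from GENCODE M21. All 48 measured members matched a position and an exon length, and 38 matched a promoter entry. Alternatives were limma-voom 3.58.1, DESeq2 1.42.0, other scalings and filters, a 1.5-fold threshold, a replicate block and leaving out each library. Members and lists were chosen with earlier results of these data known. Every member may be named; values per library are given for called members, those with unadjusted p below 0.05 or non-overlapping groups, and the sensors. Companion lists name up to 4 called genes, or the 2 most abundant. Counts of retroelements were not analysed here. No 2 libraries were duplicates.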

Additional observations from a re-analysis of the deposited data

How the results depend on the processing

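Over all tested genes, 319 were higher and 119 lower, against 624 and 482 with the DESeq2 Wald test, 104 and 18 against a 1.5-fold threshold, and 423 and 196 with a replicate block. Without 1 library at a time these counts ranged from 110 to 597 and from 21 to 509. Of the members, 4 were higher and 0 lower; with RLE scaling, library size only, no filter, DESeq2 or the replicate block there were also 4, with limma-voom or at least 1 CPM in 3 libraries 3 (the latter left Oas3 untested), and with the 1.5-fold threshold 2, Aim2 and Oas3. Without 1 library, 1 to 4 members were higher and 0 to 1 lower. Every called member kept its direction in each of these fits that tested it. The median log2 fold change of the tested members, -0.04, was 0.04 with library size only, a scaling that moved the median of all tested genes alike from -0.01 to 0.07. Without control replicate 2 it was 0.06, with all genes at 0.00. Deviations of libraries with the same replicate number correlated at 0.05, -0.03 and 0.36, and DKO replicate 2 correlated best with control replicate 1 (0.45). Deviations from a mean of 3 libraries depend on one another, so these correlations cannot decide whether equal numbers pair the libraries. Depth limits the 18 members under the filter, which summed to 46 to 139 counts per library.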

Other observations

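Beyond the members, the interferon-induced genes of the further list showed the same library of highest level: of 63 with a count, 25 (39.7%) were highest in control replicate 2 and 19 (30.2%) in DKO replicate 2, where 16.7% and 21.1% of all genes with a count were highest. In control replicate 2 the large ubiquitin ligase gene Rnf213 measured 15.5 CPM, against 6.53 to 8.27 CPM in the other 5 libraries. The GTPase gene Igtp measured 2.06 CPM there, against 0.805 to 1.06 CPM elsewhere. These 2 genes were picked after their values were seen.

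Near Ifit2, the cholesterol 25-hydroxylase gene Ch25h, which interferon can also induce, measured 2.32, 2.51 and 1.79 CPM in DKO and 0.76, 0.987 and 0.308 CPM in control libraries. The groups were apart, and the log2 fold change of 1.70 (SE 0.38) was just short of the threshold (edgeR adjusted p = 0.0564).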
